A study of Mus musculus with 18 samples.

Results

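Interleukin-4 (IL-4) turns macrophages towards a tissue-repair and anti-helminth programme, and the comparison described here asks whether that programme, 18 h after the cytokine was added, differed in cells without the transcription factor IRF4. For each gene the change from mock to IL-4 18 h in Irf4-/- cells was compared with the same change in Irf4+/- cells, within each of 3 experiments that the labels call A, B and C. The comparison uses 12 of the 18 arrays of the series, 3 for each of 4 groups. The cells were macrophages grown from the bone marrow of C57BL6/J mice aged 8 to 12 weeks, with CSF1 at 200 ng/ml, bone marrow of several animals was pooled, and the labels give the sex as 2 males and 1 female. The 3 experiments were independent and entered the fit as a block. The p-values thus measure how far differences between groups varied between experiments, not the spread of levels between them. Arrays of the same genotype and experiment were treated as independent. Mock cells spent 18 h without IL-4, and treated cells spent 18 h with mouse IL-4 at 10 ng/ml. The control genotype is heterozygous, so every group carried at least 1 mutant copy of Irf4. Littermates were used within an experiment, and the remaining 6 arrays, from cells given IL-4 for 4 h, entered the estimate of spread.

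IL-4 binds a receptor that contains the IL-4 receptor alpha chain, the receptor's kinases phosphorylate STAT6, and STAT6 dimers enter the nucleus and bind the promoters and enhancers of their target genes. Irf4 is itself an IL-4 target in macrophages. Its product binds DNA weakly alone and is known to bind together with partners such as PU.1 or BATF proteins, and it also has roles in antigen-presenting dendritic cells and in B cells.

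All levels are log2 intensities relative to the 75th percentile of their own array, so that 0 is the 75th percentile and 1 unit is a doubling. They can be compared between samples for 1 gene, not between genes. The response difference is the Irf4-/- response minus the Irf4+/- response on that log2 scale. A gene was an IL-4 gene when the mean response of both genotypes was at least 1 in size, up or down, with an adjusted p under 0.05 in limma. That mean is statistically independent of the difference, so the choice favours neither smaller nor larger responses. An IL-4 gene was attenuated or enhanced when its response difference passed an adjusted p of 0.05, and kept when it did not pass and its 95% interval lay inside -1 to 1. All other IL-4 genes were unresolved: their interval still held differences of 2-fold or more.

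Every macrophage identity gene checked was present. All 18 genes of that list, such as Csf1r, Adgre1 and Cd68, were well above background on all 12 arrays, and their summed signal lay between 9.35 and 10.49 (log2) on these arrays. The single Irf4 probe gave no lower signal in Irf4-/- cells: it rose by 2.37 ± 0.31 (SE, n = 3 per group) in Irf4+/- and by 2.30 ± 0.31 in Irf4-/- cells. Its 18 h levels were 1.75, 1.24 and 0.81 in Irf4+/- cells and 2.15, 1.17 and 1.25 in Irf4-/- cells, which overlapped. The probe's position in the gene was not determined, so this signal checks neither the deletion nor the labels. In experiments A and B each genotype's arrays shared 1 slide, so slide cancels from each response. In C the Irf4+/- response spans 2 slides, and so does the Irf4-/- response. Values of the individual experiments are therefore given for many of the genes below.

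IL-4 for 18 h changed 1037 of 15495 genes tested (6.69%), 510 upwards and 527 downwards. All 1037 moved in the same direction in both genotypes, which choosing them on the mean of both responses favours. A gene that responded in only 1 genotype could miss that criterion. No gene passed the test of the response difference: 0 of 15495 genes (0%) had an adjusted p under 0.05, the lowest being 0.439, so 0 IL-4 genes were attenuated and 0 enhanced by that criterion. At an unadjusted p under 0.05, 672 genes (4.34%) differed. That count depended on the block: 86 without a block, 1682 with genotype and experiment together as the block, and 1827 with the 3 double differences. None of these settings called a gene. With genotype and experiment as the block, the lowest adjusted p among the genes named here was 0.0988 in limma. Of the IL-4 genes, 387 (37.3%) were kept, 187 of the induced and 200 of the repressed, and 650 were unresolved. Over all genes the interval lay inside -1 to 1 for 71.9%. In 64 IL-4 genes at least 1 of the 4 groups had no array well above background, so that fitted responses and differences there rest partly on background. The estimate of the difference was less precise for IL-4 genes, with a median half-width of the 95% interval of 0.84 against 0.54 over all genes. Leaving out experiment C lowered the kept genes to 210.

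The sizes of the responses followed each other closely. Across the 1037 IL-4 genes the Irf4-/- response correlated with the Irf4+/- response at r = 0.971 with a slope of 0.957. These are genes of the same arrays, not independent replicates, and their choice on the mean response favours a high correlation. The slope was 0.897 in A, 0.964 in B and 0.961 in C. Counted in the direction of each gene's own response, the median difference was -0.05 (-0.16 in A, 0.04 in B and -0.03 in C), where a negative value is a smaller response in Irf4-/- cells. Over all genes tested that median was 0.03. The median ratio of the Irf4-/- to the Irf4+/- response was 1.02 for induced and 0.920 for repressed genes. The sign of the median over the IL-4 genes thus differed between experiments.

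**Figure D1:**
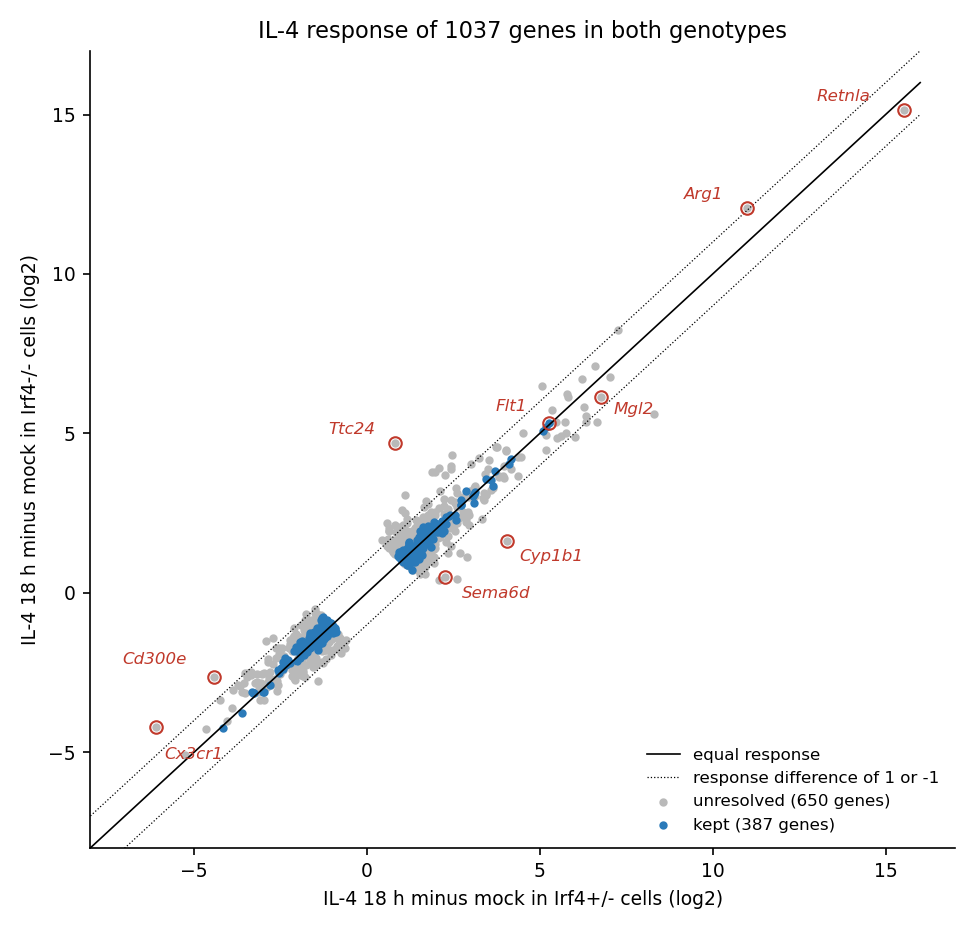
IL-4 18 h minus mock in Irf4+/- cells (x axis) and in Irf4-/- cells (y axis), both log2 and means of 3 experiments, for the 1037 IL-4 genes; blue points are the 387 kept genes, grey points the 650 unresolved ones, and circles mark genes named in the text. The points follow the line of equal response, with Sema6d and Cyp1b1 below it, and Ttc24, Cd300e and Cx3cr1 above it; points are fitted values, also where a group was below background (Retnla, Arg1 and Ttc24 in mock).

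Retnla, Arg1 and Chil3, widely used marks of the IL-4 response in mouse macrophages, rose in both genotypes. Retnla, which encodes the secreted protein RELM alpha, was not well above background on any mock array of either genotype. After IL-4 it stood at 8.01, 6.52 and 6.89 in Irf4+/- cells (A, B and C) and at 7.30, 5.58 and 6.71 in Irf4-/- cells. All 6 treated arrays were far above all 6 mock arrays and the genotypes overlapped. Against the lowest signal that counted as above background, the rise was at least 16228-fold in Irf4+/- and at least 9562-fold in Irf4-/- cells. The fitted response difference, which includes those background values, was -0.39 ± 0.54 (95% interval -1.56 to 0.79; -0.51, -0.81 and 0.17 by experiment), and a second probe gave -0.63.

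Arg1, the arginase that turns arginine into ornithine, reached 4.84, 2.22 and 4.86 in Irf4+/- cells and 4.61, 3.26 and 4.93 in Irf4-/- cells. The treated groups overlapped. The rise in Irf4-/- cells was at least 1992-fold, since none of its mock arrays was well above background there and 1 was in Irf4+/- cells. The fitted response difference of 1.09 ± 0.91 (0.35, 1.25 and 1.66 by experiment) had an interval from -0.89 to 3.06 and so was not resolved in either direction.

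Chil3, the chitinase-like protein Ym1, rose by 3.36 ± 0.45 and 2.97 ± 0.45 in Irf4+/- and Irf4-/- cells, with differences of -1.13, -0.15 and 0.11 by experiment. Of 25 C-type lectin and scavenger receptor genes tested, 13 were IL-4 genes, 4 of them induced, and the median response was -0.32 in both genotypes. Mrc1, the mannose receptor, rose by 1.59 and 1.87 and was kept, with an interval of -0.22 to 0.79. Clec10a rose by 2.73 and 2.76 and was kept (-0.47 to 0.54), while its close relative Mgl2 rose by 6.78 and 6.14, a difference of -0.64 whose interval of -1.36 to 0.07 left it unresolved. Mgl2 after IL-4 stood at 5.60, 4.83 and 5.54 in Irf4+/- and at 4.78, 4.87 and 5.14 in Irf4-/- cells, and these values overlapped. Such near-identical pairs (Mgl2 with Clec10a, Chil3 with Chil4) can share probe signal.

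To show what regulatory sequence lies at such genes, the start-site windows of RefSeq (build GRCm38.p6, 250 bases before to 50 after a start) were searched on both strands for TTCNNNNGAA, the spacing STAT6 prefers, and for GGAANNGAAA, a composite of an ETS and an IRF half-site. Of 32851 windows, 6.95% held the first motif and 2.72% the second, and the motifs do not overlap each other in the windows printed. The windows of Retnla and Pdcd1lg2 are shown because both genes rose strongly in both genotypes and each holds 1 match to the STAT6 motif, in capitals. Retnla is at chr16:48842359-48842658 and Pdcd1lg2 at chr19:29410669-29410968, both on the + strand and written 5′ to 3′.
Retnla: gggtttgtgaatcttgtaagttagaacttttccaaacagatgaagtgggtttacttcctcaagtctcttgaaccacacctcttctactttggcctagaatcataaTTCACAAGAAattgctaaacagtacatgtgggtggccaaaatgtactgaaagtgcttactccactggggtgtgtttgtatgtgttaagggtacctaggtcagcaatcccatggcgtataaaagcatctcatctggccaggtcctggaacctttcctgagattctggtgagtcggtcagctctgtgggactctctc
Pdcd1lg2: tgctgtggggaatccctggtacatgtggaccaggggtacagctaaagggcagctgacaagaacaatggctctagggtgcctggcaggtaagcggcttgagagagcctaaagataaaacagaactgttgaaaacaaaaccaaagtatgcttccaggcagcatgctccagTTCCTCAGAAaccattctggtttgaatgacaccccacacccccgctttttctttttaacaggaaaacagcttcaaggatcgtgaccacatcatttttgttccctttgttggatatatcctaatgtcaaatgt
A match describes these letters only and is not evidence of binding. Among induced IL-4 genes with a window, 32 of 384 (8.33%) held the STAT6 motif, against 787 of 11688 tested genes (6.73%), and among repressed ones 7.41%. The composite ETS and IRF motif was held by 4.69% of the induced and 7.14% of the repressed genes, against 2.93% of those tested. Among repressed IL-4 genes, 53 of 378 held GAAANNGAAA, the tandem half-site of interferon response elements, against 440 of 11688.

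Of 34 genes of JAK-STAT feedback and cytokine receptors, 8 were IL-4 genes, 5 of them induced, and the median response was -0.11 in Irf4+/- and -0.10 in Irf4-/- cells. Cish, a feedback inhibitor of cytokine receptors, rose by 5.82 ± 0.81 in Irf4+/- and 6.15 ± 0.81 in Irf4-/- cells, and its difference (0.00, 1.14 and -0.15 by experiment) had an interval of -2.14 to 2.80. Socs1, a second feedback inhibitor, rose by 4.38 and 4.27 (interval of the difference -1.27 to 1.06). Pdcd1lg2, the PD-1 ligand PD-L2, rose by 5.77 and 6.25 (-1.13 to 2.07). Cdh1, the adhesion molecule E-cadherin, rose by 5.46 and 5.35 (-1.22 to 0.99), missing the criterion for kept genes on 1 side. Il4ra, the receptor chain itself, was no IL-4 gene at 18 h: it changed by -0.42 and -0.31, and neither passed the test.

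Of the chemokines, Ccl24, which attracts eosinophils, rose by 5.19 ± 0.64 and 4.47 ± 0.64 (difference -0.72, interval -2.66 to 1.23; -1.19, 0.13 and -1.09 by experiment). Ccl17 did not pass the test in either genotype (0.55 and 0.45), and Ccl22 was not well above background on all arrays of any group, so it was not tested. Among transcription factors, Egr2 and Klf4 were kept, with differences of 0.04 (-0.70 to 0.78) and 0.04 (-0.50 to 0.59), and Pparg was kept with -0.24 (-0.98 to 0.51). Batf3, a partner of IRF proteins, rose by 3.59 and 3.22, and its difference of -0.38 was negative in all 3 experiments with an interval from -1.58 to 0.82. Myc had the mean response of an IL-4 gene, but neither genotype alone passed the test, with 1.43 ± 0.56 and 0.97 ± 0.56.

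Tgm2 and Alox15, often used as marks of alternative activation, did not meet the criterion for IL-4 genes. Tgm2, a transglutaminase, fell by 0.95 ± 0.20 in Irf4+/- cells (adjusted p = 0.00618 in limma) and changed by -0.28 in Irf4-/- cells, with a difference of 0.67 at an unadjusted p of 0.0372 in the same fit. Alox15, a lipoxygenase, changed by -0.18 in Irf4+/- cells. After IL-4 it was not well above background on any Irf4-/- array, so its level there was at least 2.06-fold lower than in mock, which did not pass the test, and the 3 experiments disagreed on the fitted difference (-3.67, 0.51 and -3.23).

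**Figure D2:**
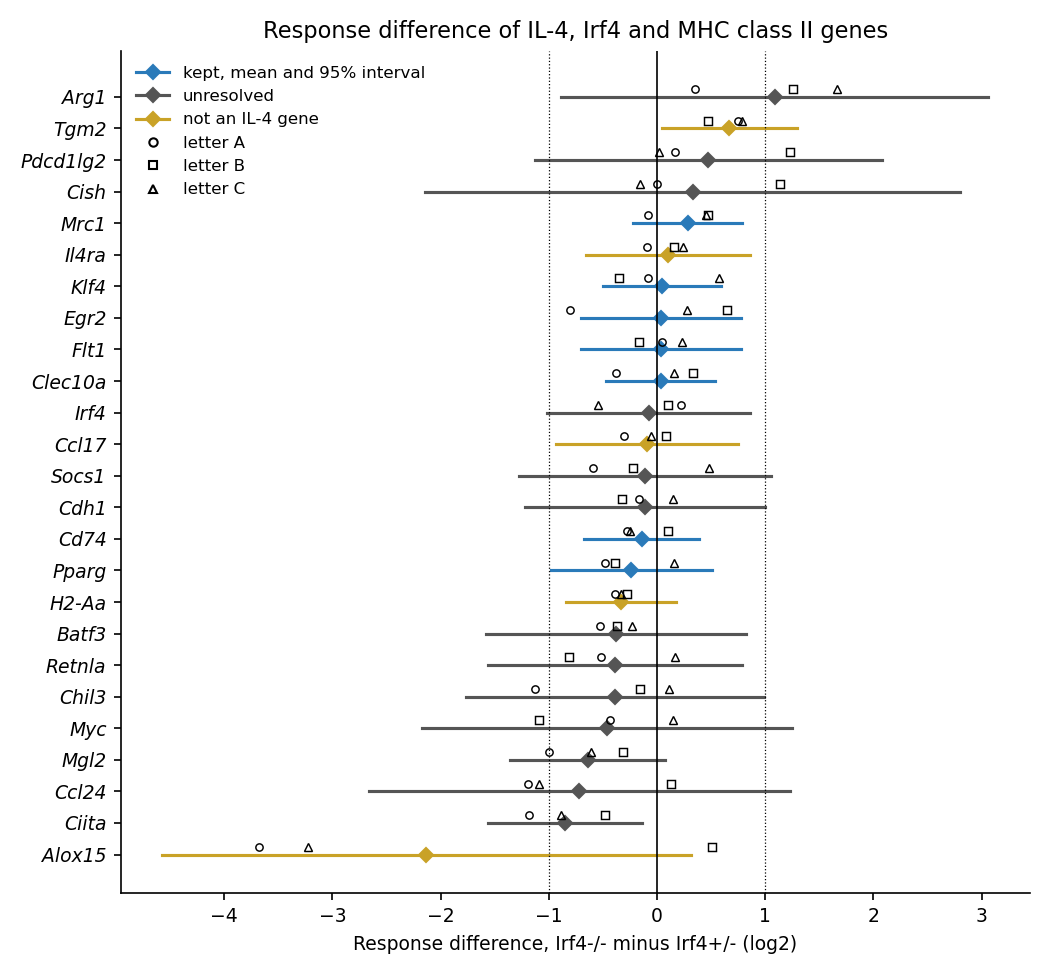
Response difference (x axis, log2, Irf4-/- minus Irf4+/-) of 25 of the 26 genes listed as known IL-4, Irf4 or MHC class II genes (Ccl22 was not tested); diamonds are means over 3 experiments with their 95% interval, small symbols are the experiments, and dotted lines stand at -1 and 1. The intervals of Ciita and Tgm2 leave out 0 before adjustment, and those of Cish, Arg1 and Alox15 are widest.

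Kept genes include some with very large responses. The kept gene with the largest mean response was Flt1, a receptor for vascular endothelial growth factor. Its mock level was 0.16, 1.00 and 0.09 in Irf4+/- and 0.12, 1.14 and -0.02 in Irf4-/- cells, and after IL-4 it was 5.78, 5.61 and 5.69 against 5.79, 5.59 and 5.80. The treated arrays of the genotypes overlapped almost completely, and 3 other probes gave differences from -0.16 to 0.11 beside 0.04 for the main probe. Slc7a2, a transporter of arginine and other cationic amino acids, rose by 5.17 and 5.20. Mcf2l, a guanine nucleotide exchange factor, rose by 5.09 and 5.08. Its differences by experiment were -0.56, 0.57 and -0.03, and 2 other probes gave -0.55 and 0.03.

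The next kept genes in order of response were of varied function. Tarm1, an activating receptor of myeloid cells, rose by 4.12 and 4.02; F10, coagulation factor X, by 3.69 and 3.81; Il1r1, the signalling receptor for interleukin-1, by 3.58 and 3.54. Ptgs1, cyclooxygenase-1, rose by 3.45 and 3.55, and Bhlhe40, a transcriptional repressor, by 3.65 and 3.34. The other 3 of the 12 beside Flt1, Slc7a2, Mcf2l and Egr2 were repressed. The adhesion molecule gene Dscam fell by 4.17 and 4.23, to levels well above background on 2 treated Irf4+/- arrays and 1 treated Irf4-/- array. Cmah, which makes N-glycolylneuraminic acid, fell by 3.31 and 3.14. Cxcl11, an interferon-induced chemokine, was below background on all treated arrays and fell at least 7.70-fold in Irf4+/- and 8.68-fold in Irf4-/- cells. Its fitted difference compares background with background after IL-4 and does not show that the fall was alike. The differences of the other 11 genes lay between -0.31 (Bhlhe40) and 0.17 (Cmah).

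The 24 IL-4 genes with the smallest unadjusted p, 12 for a smaller and 12 for a larger response in Irf4-/- cells, are described next. None was called, and since they were picked by that p their differences are a description. Over all IL-4 genes 73 (7.04%) had an unadjusted p under 0.05, 51 smaller and 22 larger, and that balance was 25 to 39 without experiment A and 31 to 42 without the treated Irf4-/- array of B. The difference had the same sign in all 3 experiments for 396 (38.3%), against 35.1% of all genes tested. At 4 h the genotype difference in level had the sign it had at 18 h for 11 of the 12 genes with a smaller response. The exception was Tfrc, with 0.03 against -0.64. Of the 12 with a larger response 9 kept the sign (not Ttc24, Enpp1 and Pcolce). The 9 include Entpd3, whose level was lower in Irf4-/- cells at both times although it rose with IL-4 (-0.60 and -0.07). The 4 h arrays do not enter the response difference itself, but they come from the same experiments. In A and B they also share each genotype's slide. The same count over all genes was not made, so these counts are a description and no independent support.

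Sema6d, a transmembrane semaphorin, had the smallest p of any IL-4 gene. In Irf4+/- cells it went from -2.71, -3.14 and -3.73 in mock to -0.39, -0.90 and -1.49 after IL-4, and in Irf4-/- cells from -2.50, -3.51 and -3.80 to -2.63, -2.39 and -3.29. The mock groups overlapped, and the lowest treated Irf4+/- array lay above the highest treated Irf4-/- array. The response was 2.26 ± 0.22 against 0.50 ± 0.22, a difference of -1.76 ± 0.31 (-2.45, -1.11 and -1.72 by experiment) with an unadjusted p of 7.63e-05 and an adjusted p of 0.468 in limma. A second probe gave -2.04. At 4 h the Irf4-/- level was -2.34, -2.13 and -2.42 against -1.02, -1.04 and -1.64, again without overlap.

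Cyp1b1, a cytochrome P450, rose by 4.05 ± 0.45 in Irf4+/- and by 1.64 ± 0.45 in Irf4-/- cells. Its treated levels were -2.51, -1.65 and -1.62 against -4.72, -4.81 and -3.33, without overlap, and 2 of 3 mock arrays of each genotype were well above background. Tfrc, the transferrin receptor that takes up iron, went from -0.15, -1.10 and -0.14 to 2.35, 1.36 and 2.16 in Irf4+/- cells and from 0.19, -0.65 and -0.00 to 1.67, 0.69 and 1.60 in Irf4-/- cells. Its difference of -0.95 ± 0.19 lay within -1.12 to -0.69 in the 3 experiments, and although the treated groups overlapped, the Irf4-/- array was the lower one in each experiment. The other induced genes of the set were Ddhd1, a phospholipase, with -0.80 and 2 further probes between -0.98 and -0.62, and Mpp6, a membrane scaffold protein, with -0.97 (-1.07, -1.68 and -0.15 by experiment).

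The other 7 genes fell with IL-4 and fell less in Irf4-/- cells. Cd300e, an activating receptor of monocytes, went from 2.26, 1.08 and 1.56 to -2.61, -2.94 and -2.79 in Irf4+/- cells, and from 2.24, 2.29 and 1.89 to 0.12, -0.56 and -1.06 in Irf4-/- cells. The treated groups were far apart and the mock groups overlapped. The fall was 4.42 ± 0.24 against 2.64 ± 0.24 in size, with an unadjusted p of 0.000151 for the difference. Mterf2, a mitochondrial protein, changed by -2.93 and -1.51, and its treated levels did not overlap (-3.52, -2.77 and -4.03 against -1.86, -1.59 and -2.13).

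Cx3cr1, the fractalkine receptor of monocytes and macrophages, fell from 2.47, 0.64 and 0.61 to -3.93, -4.97 and -5.66 in Irf4+/- cells and from 2.34, 1.09 and 0.14 to -1.42, -3.31 and -4.36 in Irf4-/- cells. The treated groups overlapped, but within each experiment the Irf4-/- array was the higher one, and the level after IL-4 differed by 1.82 (adjusted p = 0.0254 in limma). The response difference of 1.87 ± 0.43 came from the brighter probe, and a second probe gave 0.11, so the gene's difference depends on the probe. The same was true of Arap3, a GTPase-activating protein, with 0.66 and 0.12. Pira1, a paired immunoglobulin-like receptor with close paralogues, had a difference of 0.77, Itga9, an integrin subunit, of 0.67 on both probes, and Exoc3l2 of 0.92. Exoc3l2 was well above background on 1 treated Irf4+/- array, so its fall there rests partly on background.

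**Figure D3:**
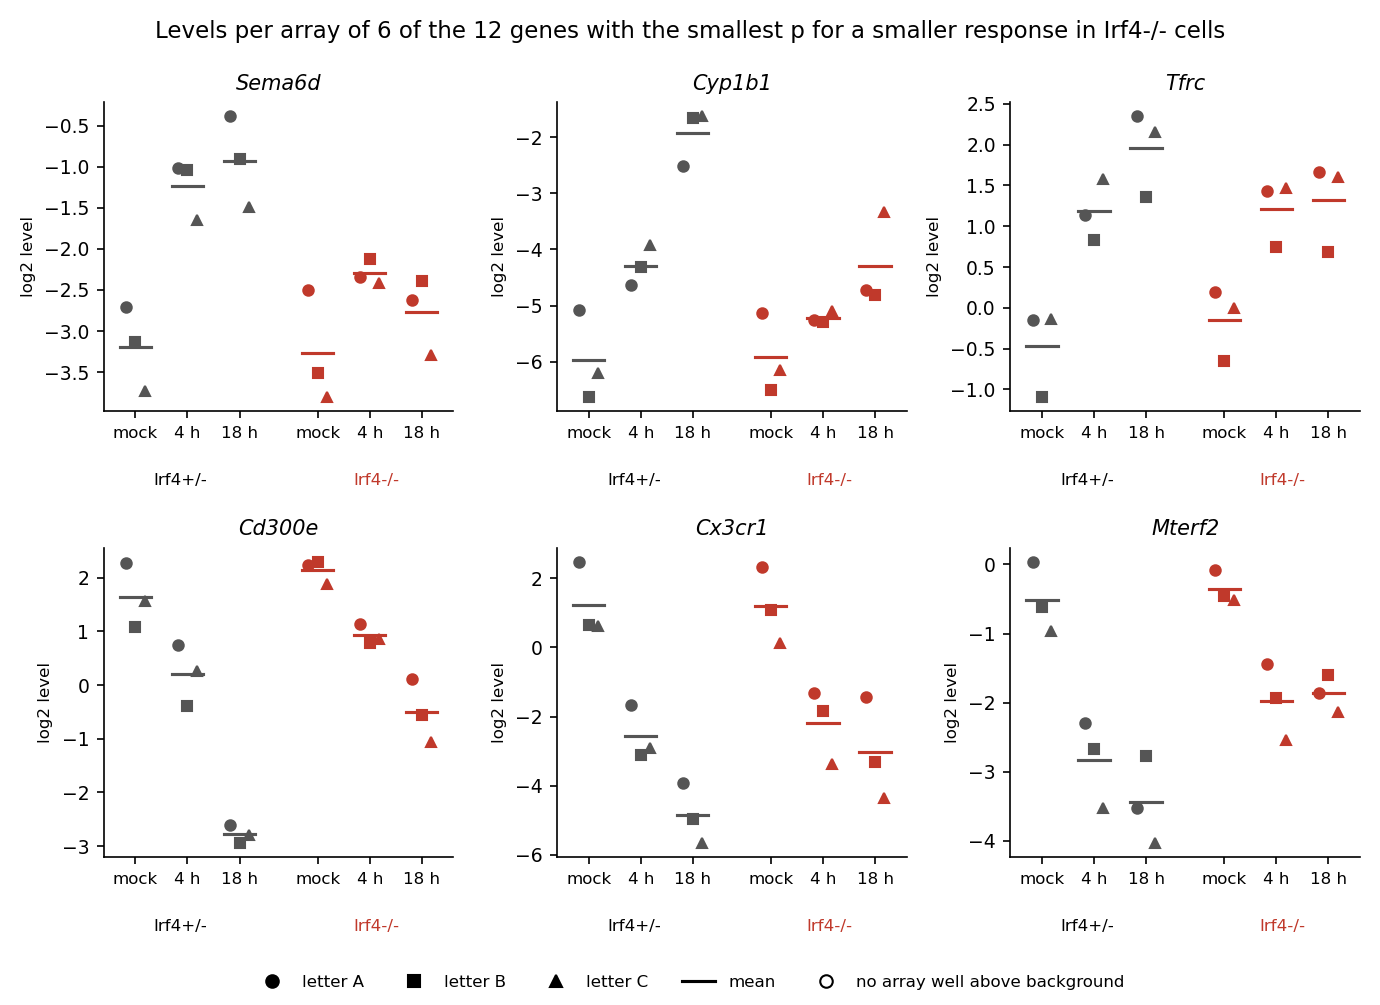
Levels (y axes, log2 relative to the array's 75th percentile) on every array for 3 induced and 3 repressed genes of the 12 with the smallest p for a smaller response, by genotype and time (x axes); symbols are experiments and bars group means. After IL-4 18 h the Irf4-/- arrays are apart from the Irf4+/- arrays for Sema6d, Cyp1b1, Cd300e and Mterf2, and overlap them for Tfrc and Cx3cr1, although within each experiment the Irf4-/- array is lower for Tfrc and higher for Cx3cr1.

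Among the 12 genes with the smallest p for a larger response is Ttc24, a gene for a tetratricopeptide-repeat protein. Its mock arrays were all below background, its spots on both treated A arrays were left out as outliers, and 1 treated Irf4+/- array was well above background. After IL-4 it stood at -6.82 and -7.34 in Irf4+/- cells of B and C and at -3.02 and -4.66 in Irf4-/- cells. The rise in Irf4-/- cells was at least 7.21-fold; the size of the response difference is not given, since it rests on background, and its sign turned under normexp. Its RefSeq window, printed because it alone among the 19 of these 24 genes that have one holds a listed motif, is at chr3:88078255-88078554 on the - strand, with the match to GGAANNGAAA in capitals. That motif was held by 5.26% of the 19 genes, against 2.93% of tested genes with a window. The STAT6 motif and GAAANNGAAA, held by 6.73% and 3.76% of tested genes, were in none of the 19.
Ttc24: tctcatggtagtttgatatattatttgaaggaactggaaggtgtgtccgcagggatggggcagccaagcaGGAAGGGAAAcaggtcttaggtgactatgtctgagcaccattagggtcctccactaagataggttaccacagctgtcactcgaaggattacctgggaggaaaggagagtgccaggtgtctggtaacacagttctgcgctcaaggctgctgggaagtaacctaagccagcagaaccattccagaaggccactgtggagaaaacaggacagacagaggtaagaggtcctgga

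Alox8, a lipoxygenase, stood at -5.63, -5.60 and -4.33 after IL-4 in Irf4+/- cells and at -3.79, -3.98 and -3.53 in Irf4-/- cells, without overlap. At 4 h it stood at -4.02, -4.12 and -3.38 against -3.25, -3.23 and -2.93, and in mock at -5.73, -5.84 and -5.29 against -5.11, -6.06 and -5.09. Its 18 h response was 0.43 ± 0.21 and 1.66 ± 0.21, a difference of 1.22 ± 0.30.

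Enpp1 and Entpd3, both for enzymes that cleave extracellular nucleotides, were both picked. Enpp1 had a difference of 0.64 (0.86, 0.96 and 0.10 by experiment, second probe 0.69). Entpd3 was below background on all Irf4-/- mock arrays and on 2 of the 3 Irf4+/- ones, so its rise in Irf4-/- cells is given as at least 4.11-fold. Its treated levels differed between genotypes by -0.07, and the fitted response difference came from the mock levels. Ednrb, an endothelin receptor, had 1.04 (1.00, 1.91 and 0.21 by experiment, second probe 1.27), Gem, a small GTPase, 1.07, Pcolce, an enhancer of procollagen processing, 0.45, Olfr1410, an olfactory receptor gene, 1.28, and the unnamed locus LOC381484 0.94 (1.05, 1.68 and 0.10). Pcolce met the criterion for kept genes. Celf4, Igsf9 and A430060F13Rik fell further in Irf4-/- cells, with differences of -0.90, -0.90 and -0.87.

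MHC class II genes present peptides to CD4 T cells, and Ciita encodes the coactivator that switches them on. The list of class II presentation genes was made with results of these data known. The response difference over its 20 genes was small: the median was -0.12 beside 0.08 over all genes tested, 15 of the 20 were negative, 0 were called, and 3 had an unadjusted p under 0.05, all lower. With normexp background correction the median was 0.13, of the opposite sign. Without spots far dimmer than their background, of which arrays held 0 to 7, normexp gave -0.10, with 13 negative and 7 positive. Ciita was one of the 3 genes with an unadjusted p under 0.05. It went from 0.13, 0.34 and -1.98 to 1.94, 1.61 and -0.06 in Irf4+/- cells and from -0.93, -1.81 and -3.02 to -0.31, -1.02 and -1.98 in Irf4-/- cells. Within each experiment every Irf4-/- array was below its Irf4+/- counterpart, while the groups overlapped because C was low in both. The response was 1.67 ± 0.23 and 0.82 ± 0.23, a difference of -0.85 (-1.56 to -0.14, unadjusted p = 0.0226 in limma).

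The level itself, in contrast to the response, passed the test for several of these genes. That test treated arrays of the same genotype and experiment as independent, so its p-values do not rest on the 3 experiments alone. In mock cells 5 genes differed between genotypes (0.0323% of those tested), H2-Eb1, H2-Ab1, H2-Aa, Arrdc5 and Slc26a4, the first 3 by -1.35, -1.18 and -1.14. At 4 h there were 4 (0.0258%): the same 3 class II genes and Tnfrsf13c, a receptor of B cells for the cytokine BAFF. Tnfrsf13c was dim, with mock levels of -6.59 in Irf4+/- and -8.25 in Irf4-/- cells. Retnla, below background on all mock arrays, stood there at -8.39 and -8.62, so the size of the Tnfrsf13c difference may rest partly on background. At 18 h 70 genes differed (0.452%), 34 higher and 36 lower in Irf4-/- cells, 26 of them IL-4 genes, and 7 of the 20 class II genes were among the lower ones.

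H2-Ab1, a chain of the class II molecule, stood at 6.59, 5.95 and 4.83 after IL-4 in Irf4+/- cells and at 4.99, 4.11 and 3.51 in Irf4-/- cells. It was lower by 1.59 ± 0.15 (adjusted p = 0.00164 in limma). Its response was 0.76 and 0.35, and the response difference of -0.41 was not called. H2-Eb1 and H2-Aa were lower by 1.58 and 1.47 after IL-4, with response differences of -0.23 and -0.33. Ciita was lower by 2.27 (adjusted p = 0.00164 in limma), the exchange factor genes H2-DMb2 and H2-DMa by 1.40 and 1.20, and Cd74, the invariant chain, by 0.93 (adjusted p = 0.0396). Cd74 rose by 1.26 and 1.11 and was kept, and its difference of -0.78 in mock did not pass the test.

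The number of calls depended on the arrays used. Without A 1 gene was called at 18 h, without B 0 and without C 24, and leaving out a single array gave between 14 and 52. In mock and at 4 h, leaving out any experiment ended every call, and leaving out single arrays gave 0 to 6 and 0 to 5. At 18 h the fit without the experiment block called 4 genes, that with slide in its place 2, and normexp 0, and none of these called H2-Ab1 or Ciita. The sizes moved little: over all 15 omissions H2-Ab1 was lower at 18 h by 1.46 to 1.73 and Ciita by 2.07 to 2.44. In A and B each slide carried 1 genotype, so slide and genotype cannot be told apart there for levels.

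**Figure D4:**
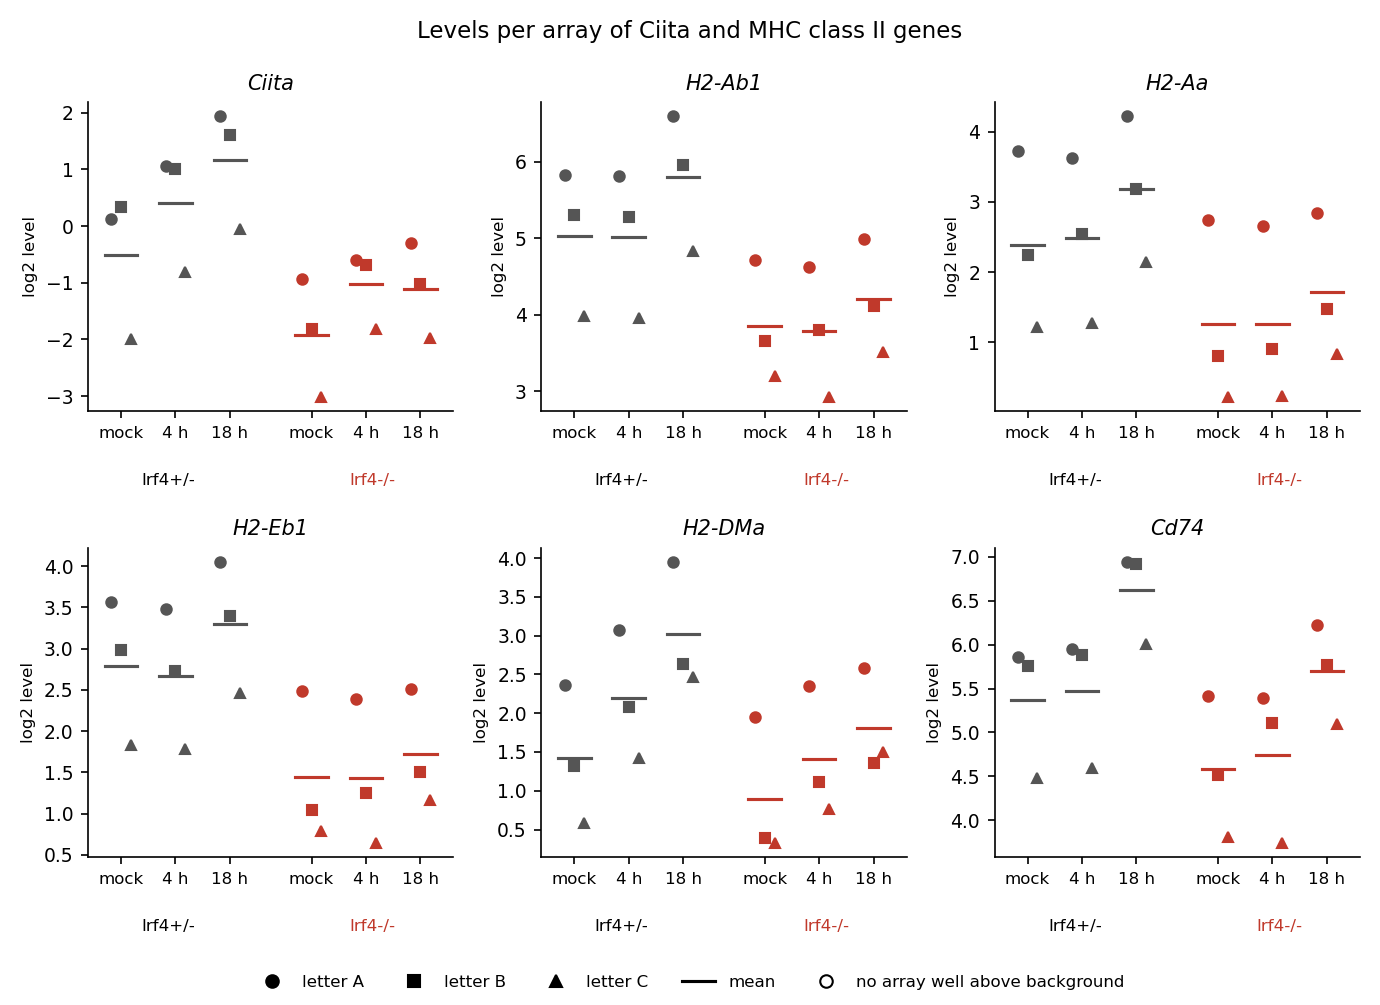
Levels (y axes, log2 relative to the array's 75th percentile) of Ciita and 5 MHC class II genes on every array by genotype and time (x axes); symbols are experiments and bars group means. In each experiment the Irf4-/- array lies below the Irf4+/- array of the same time for all 6 genes, and every 18 h array lies above its mock array.

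In bulk samples a smaller share of class II-bearing cells and less class II RNA per cell cannot be told apart. The summed signal of 12 dendritic cell markers ranged from 0.58 to 2.24 in Irf4+/- and 0.32 to 2.47 in Irf4-/- mock cells, and from 1.11 to 3.28 and 0.99 to 3.36 after IL-4. All 13 of those markers on the array were above background on at least 1 of the 12 arrays, 9 of them on all. The 9 tested B-lineage markers summed to 6.17 to 6.67 and 5.54 to 6.52 in mock, and 6.10 to 6.60 and 6.15 to 6.53 after IL-4. Ebf1 and Fcer2a of that list of 14 were never above background on these arrays, and 7 of the 14 were above it on all 12. These ranges overlapped between genotypes for both lists in both conditions. Signals were summed before the log2, so a sum mostly follows its brightest members, and the overlap does not measure how many such cells were present. The median genotype difference within experiments in mock was -0.43 over the dendritic cell markers and -0.40 over the B-lineage markers. Over all genes tested it was -0.07. After IL-4 18 h these 3 medians were -0.06, -0.04 and 0.02. All 9 B-lineage genes had a positive response difference, with a median of 0.37. Under normexp the median response difference of the B-lineage markers was -1.66, with 7 of 9 negative. For the dendritic cell markers it was -1.60 against 0.05. Without the far dimmer spots normexp gave 0.43 and 0.36 for these lists. The part of such cells in the class II result was not tested.

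A general shift towards higher responses in Irf4-/- cells was present over all genes and depends on the scaling. With the 75th percentile, 65.4% of genes had a positive difference and the median was 0.08; among the 672 genes at an unadjusted p under 0.05, 591 were positive and 81 negative. With median scaling these were 54.5%, 0.02, 368 and 112, and with quantile normalization 56.7%, 0.03, 470 and 129. With normexp the median was -0.08 while 1352 were positive and 507 negative. Without the far dimmer spots normexp gave a median of 0.12, with 545 positive and 46 negative.

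The remaining gene lists had no called member for the response difference. The IL-4 signature had 39 tested genes, 28 of them IL-4 genes, all induced, of which 8 were kept, and a median difference of -0.09 that lay at -0.39 in A, 0.08 in B and -0.00 in C. Of 43 interferon-stimulated genes, such as the chemokine gene Cxcl11, 34 were IL-4 genes and all were repressed. Their median response was -1.50 in Irf4+/- and -1.36 in Irf4-/- cells, and 6 were kept. A positive difference was found for 32 of the 43, for 26 under median scaling, 22 under quantile normalization and 36 under normexp. Without the far dimmer spots normexp gave 29. Of 17 inflammatory cytokine and chemokine genes, 13 had a positive difference with a median of 0.35 (0.02, 0.27 and 0.52 by experiment). Under normexp 9 were positive, with a median of 0.04. In 23 chemokine and chemoattractant receptors 20 were positive with a median of 0.28 (0.30, 0.40 and 0.27 by experiment), which turned to -0.17 under normexp. Without the far dimmer spots normexp gave medians of 0.26 and 0.32 for the 2 lists, with 14 and 21 positive. Of the receptors 11 were IL-4 genes, 2 of them induced, and the median response of all 23 was -0.86 in Irf4+/- and -0.64 in Irf4-/- cells.

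Genes of cholesterol biosynthesis, which make sterols from acetyl-CoA, had differences mostly of 1 sign and small size. In 23 of 24 the difference was negative, with a median of -0.15 (-0.19, -0.19 and -0.07), and 21 intervals lay inside -1 to 1. The 1 positive difference, 0.74, was the largest in size, the lowest being -0.32. It was also the only one with an unadjusted p under 0.05 in limma. The count of negative differences stayed at 23 under median scaling and quantile normalization, and was 6 under normexp, with a median of 0.27. Without the far dimmer spots normexp again gave 23, with a median of -0.22. Mitosis genes, which mark dividing cells, were negative in 27 of 33 with a median of -0.10, but the experiments disagreed (-0.13, 0.19 and -0.32). For them normexp gave 0.28, and -0.11 without the far dimmer spots. Oxidative phosphorylation genes had a median of 0.01 and glycolysis genes of 0.04, and all 35 and 18 intervals lay inside -1 to 1. Both medians changed sign under median scaling (-0.04 and -0.02). They were 0.57 and 0.54 under normexp, and -0.06 and -0.02 under normexp without the far dimmer spots.

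**Figure D5:**
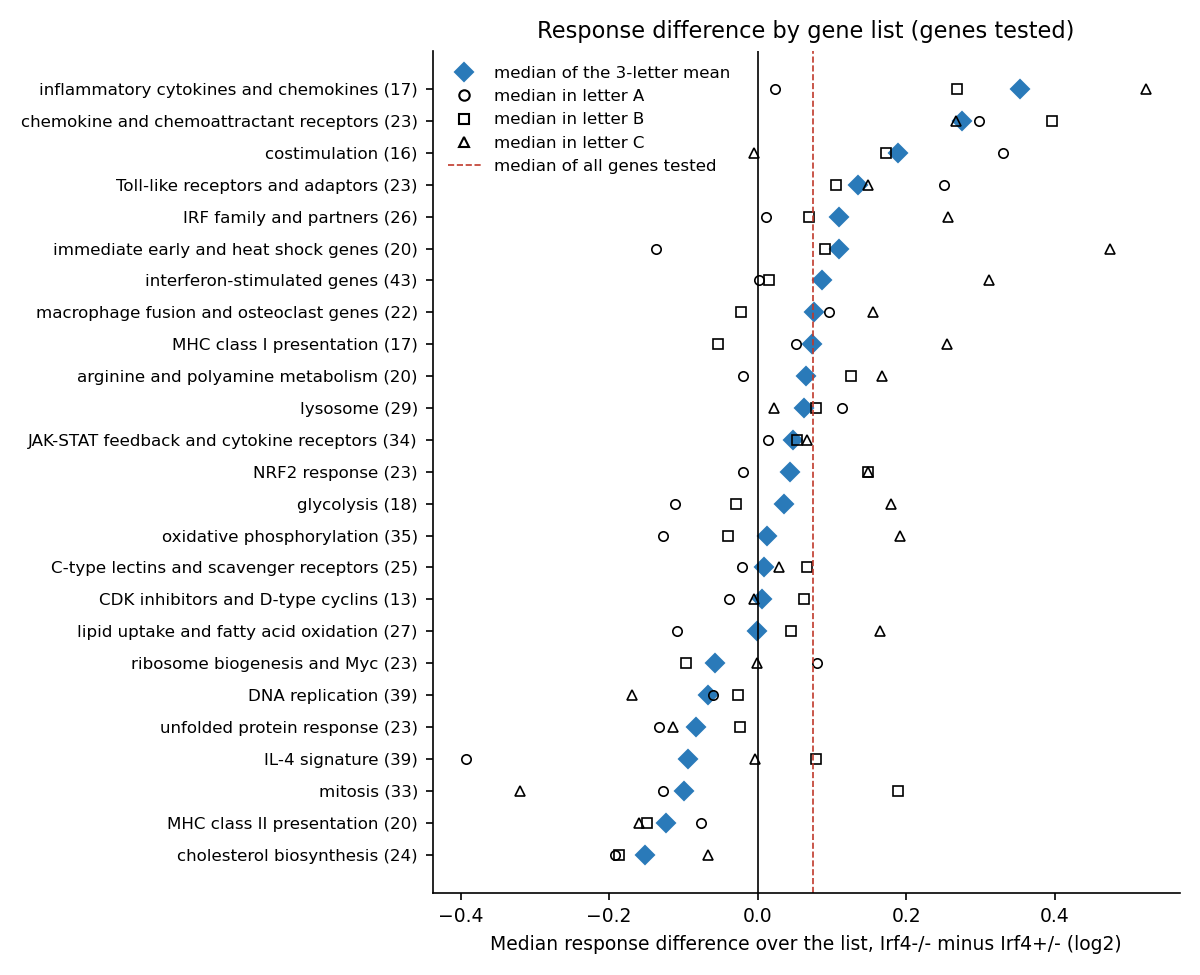
Median response difference (x axis, log2, Irf4-/- minus Irf4+/-) of 25 gene lists, with the number of genes tested in brackets; diamonds are medians of the mean over 3 experiments, open symbols the medians within each experiment, and the dashed line the median of all genes tested. List medians lie between -0.15 (cholesterol biosynthesis) and 0.35 (inflammatory cytokines and chemokines).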

How the data were processed

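Total RNA of 18 samples was labelled with Cy3 and hybridised singly to Agilent arrays, whose deposited scanner files hold spot intensities made with Agilent Feature Extraction 9.5.1, per the file headers and the submitters' processing notes. The processed intensity (background-subtracted by that software) was put on the log2 scale and each array's 75th percentile subtracted. The authors' deposited table of log2 values, whose centring is not stated, served as an alternative: its columns correlated with the same arrays' values at 0.997 or more, and column medians lay between -0.18 and 0.21. Control and outlier spots were left out, and 27514 of 41174 probes were kept because all 3 arrays of at least 1 group were well above background (63.4 to 74.4% of probes were so per array). Probes were named through RefSeq accessions or symbols (21300 genes), and the brightest kept probe stood for a gene.

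limma 3.58.1 in R 4.3.3 fitted 15495 genes on all 18 arrays with 1 mean per group and the experiment letter as a block, and Benjamini-Hochberg adjustment ran over all of them. Letters pair the samples: the design text gives littermates within an experiment, and deviations from group means correlated at 0.43 to 0.88 within a letter and at -0.65 to 0.27 between letters. Named genes were the 12 IL-4 genes with the smallest p in each direction, the 12 kept genes with the largest mean response and 26 known genes. Genes called in numbers of 5 or fewer, and H2-Ab1, H2-Eb1, H2-DMa, H2-DMb2 and Tnfrsf13c, were named after their values were seen. Members and lists were chosen with earlier results of these data known. A fold against a group below background is a lower bound: it sets the bright mean against the lowest signal counted as above background. Alternatives covered the block, arrays used, scaling, background, filter, probe rule, array weights, slide, prior and thresholds.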

Additional observations from a re-analysis of the deposited data

How the results depend on the processing

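No setting attenuated or enhanced an IL-4 gene, and the response difference was called for 0 genes in all settings except array weights, with 1 (Vstm5). Letter as the replicate block was the main design. Without the replicate block there were 123 kept IL-4 genes, and the genotype difference was called for 0 genes in mock, 0 at 4 h and 4 at 18 h. With 12 arrays and the block, the mock and 18 h counts were 0 and 10. The kept IL-4 genes numbered 649 with 3 double differences and 641 when those were taken from the authors' values. Median scaling left 2 mock calls, and quantile normalization 0 in mock and 2 at 4 h. Normexp gave 467 IL-4 genes, 74 kept, a median oriented difference of -0.30 and 0, 0 and 0 genotype calls; without far dimmer spots it gave 635 IL-4 genes, and 3 mock and 33 18 h calls. With no filter on dim probes the genotype calls were 0, 0 and 20. Calls at 18 h numbered 353 with array weights, 41 with slide as a random block and 108 with a trended robust prior; slide as a fixed block left 1, 1 and 2. With no minimum change there were 4690 IL-4 genes, 3511 of them kept, and an interval inside -0.5 to 0.5 left 21. Choosing IL-4 genes on the Irf4+/- response moved the median to -0.16 and on the Irf4-/- response to 0.070, since choosing on 1 genotype favours it. The causes of the other changes were not tested.

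Leaving out an experiment or an array gave 911 to 1106 IL-4 genes, 210 to 385 kept IL-4 genes, 0 genes with a response difference, and medians from -0.17 (without Irf4+/- 18 h of B) to 0.061 (without Irf4-/- 18 h of B). Genotype calls ranged from 0 to 6 in mock, 0 to 5 at 4 h and 0 to 52 at 18 h. Of the 24 genes described, 10 changed sign under normexp (Cx3cr1, Mterf2, Exoc3l2, Ttc24, Alox8, Ednrb, Olfr1410, Pcolce, Gem and Entpd3), and Celf4 under normexp without far dimmer spots. Over 1.5 times moved 8 of the 24 in the latter setting (Cx3cr1, Cyp1b1, Exoc3l2, Ttc24, Alox8, Gem, Entpd3 and Igsf9), and 4 without experiment B: the response difference of Mpp6 was -0.61, the response difference of Ednrb 0.60, the response difference of LOC381484 0.57 and the response difference of Pcolce 0.28. With all spots kept, normexp moved 4 of the 24 over 1.5 times without a change of sign (Cd300e, Itga9, Mpp6 and Celf4). Dim signal limits Retnla, Arg1, Ttc24 and Entpd3, whose mock levels are bounds in at least 1 genotype. It also touches Exoc3l2, well above background on 1 treated Irf4+/- array, and Dscam, on 2 treated Irf4+/- arrays and 1 treated Irf4-/- array. Gem was well above background on 2 Irf4+/- mock arrays and 1 Irf4-/- mock array.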
